A study of Caenorhabditis elegans with 2 samples.

Results

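Genes for ribosomal proteins and for translation initiation and elongation factors were examined for HLH-4 binding in whole Caenorhabditis elegans larvae. The 109 members were the protein-coding genes of the Ensembl WBcel235 annotation whose symbols start with rpl- (47 genes, proteins of the large ribosomal subunit), rps- (31 genes, small subunit), eif- (25 genes, initiation factors) or eef- (6 genes, elongation factors), out of 19973 protein-coding genes on the nuclear chromosomes. HLH-4 is a transcription factor of the Achaete-Scute group. DNA bound by it was recovered by ChIP-seq, that is, by pulling down sheared chromatin with anti-GFP antibody and sequencing it, from 2 biological replicates of 1 group. The animals were hermaphrodite first-stage (L1) larvae of strain OP523, which carries unc-119(tm4063) III and the transgene insertion wgIs523, and they were collected 6 hours after a starvation synchronization. The transgene makes HLH-4 with GFP and FLAG at its C-terminus. The labels do not state which promoter drives it or in which cells it is made, and the larvae were not separated by cell type. With 1 group the design holds no comparison between conditions, so no test between groups was made, and the values below are descriptions of regions in the 2 libraries.

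Ribosomal proteins and ribosomal RNA together form the large and the small subunit of the ribosome. Initiation factors bring the small subunit to the messenger RNA and its start codon, and elongation factors deliver the transfer RNAs and move the ribosome along. These genes are used by every growing cell, whereas hlh-4 is known from a single pair of sensory neurons, the ADL neurons. Achaete-Scute factors bind DNA with an E-protein partner at E-boxes with a G/C-rich centre. The motifs counted here as proneural E-boxes are CAGCTG and CACCTG (on the other strand CAGGTG), and CACGTG is counted apart. Many C. elegans transcripts are trans-spliced to a leader, so that an annotated gene start can lie downstream of the site where transcription begins.

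Peaks of the HLH-4 ChIP lay upstream of 8 of the 109 genes. These were 4 large-subunit genes (rpl-15, rpl-35, rpl-20 and rpl-3), 2 small-subunit genes (rps-1 and rps-24) and the genes of 2 subunits of initiation factor 3 (eif-3.C and eif-3.E), each with 1 peak. All 8 summits were 246 to 486 bp upstream of the annotated start. None held a proneural E-box, and the 5 strongest held a different 6-base word, AGTGTA. A peak was counted for a gene when its summit, the point of highest signal, was at most 2000 bp before or 500 bp after the annotated start. Counted this way, 7.34% of the members had a peak, beside 2.23% of all protein-coding genes. The peaks are those of the authors' optimal set, 545 peaks thresholded by irreproducible discovery rate (IDR), a measure of agreement between replicates. They are also the 545 strongest regions of the list made from the pooled replicates. A few of them, at other genes, overlapped no region of 1 replicate. Positions are on build ce11. The control library and ChIP of other proteins were not analysed here, so whether these regions also give signal without HLH-4 was not tested.

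For each of the 6 strongest peaks at members, the 101 bases centred on the summit are printed from the RefSeq WBcel235 (ce11) reference genome on the strand of the gene. The windows at eif-3.C and eif-3.E, which hold no AGTGTA, are not printed. Capitals mark AGTGTA or its reverse complement TACACT.

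rpl-15: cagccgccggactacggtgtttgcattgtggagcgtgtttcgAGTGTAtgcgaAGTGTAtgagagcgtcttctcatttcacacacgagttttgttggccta
rpl-35: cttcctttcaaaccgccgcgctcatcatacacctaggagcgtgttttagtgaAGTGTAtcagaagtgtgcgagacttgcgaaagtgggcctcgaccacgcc
rpl-20: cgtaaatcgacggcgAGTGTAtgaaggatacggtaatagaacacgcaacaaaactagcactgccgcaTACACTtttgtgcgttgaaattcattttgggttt
rps-1: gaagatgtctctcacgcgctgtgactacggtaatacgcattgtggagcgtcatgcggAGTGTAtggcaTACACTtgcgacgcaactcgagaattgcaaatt
rpl-3: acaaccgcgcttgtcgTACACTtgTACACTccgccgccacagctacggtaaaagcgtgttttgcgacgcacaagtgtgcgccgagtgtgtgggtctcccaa
rps-24: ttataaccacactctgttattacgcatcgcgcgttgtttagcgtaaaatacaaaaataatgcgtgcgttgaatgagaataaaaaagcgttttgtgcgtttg

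The windows lie at chrIV:654858-654958 on the minus strand for rpl-15, chrIII:7854635-7854735 on the plus strand for rpl-35, chrIV:4750009-4750109 on the minus strand for rpl-20, chrIII:4475610-4475710 on the plus strand for rps-1, chrIII:3867524-3867624 on the plus strand for rpl-3 and chrIV:385351-385451 on the plus strand for rps-24. The capitals stand within 32.5 bp of the summit, counted to the centre of the word, in the first 5 windows, and there are none in the rps-24 window. The rps-1 window overlaps exons of F56F3.10 and F56F3.11, both annotated as non-coding RNA genes. The other 5 overlap no annotated exon.

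The peak at rpl-15 was the strongest at any member. It spanned IV 654743 to 655072, and its summit lay 332 bp before the start of rpl-15 (IV 653480 to 654576, minus strand). Its signal value, a number per region on a scale that the files do not explain, was 127.4 in the pooled list, where it ranked 47. The region ranked 130 in replicate 1 (signal value 40.3) and 23 in replicate 2 (signal value 88.1). Signal values are compared only within 1 list, and ranks are set side by side across lists. Over the 545 optimal peaks the signal value ran from 43.1 to 379.5 with a median of 65.4, which the rpl-15 value exceeded.

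Among the other large-subunit genes, rpl-35 had the second strongest peak. Its summit, 449 bp upstream of the start (III 7855134 to 7855646, plus strand), had a pooled signal value of 91.2 and rank 121. It ranked 209 in replicate 1 and 87 in replicate 2, with signal values of 32.5 and 60.4. The peak at rpl-20 had a signal value of 83.1 (rank 157), 281 bp upstream of the start (IV 4749123 to 4749778, minus strand), and ranked 169 in replicate 1 (35.6) and 224 in replicate 2 (41.6). The peak at rpl-3, which encodes a large-subunit protein near the peptidyl transferase centre, had a signal value of 78.8 (rank 178), 280 bp upstream of the start (III 3867854 to 3869587, plus strand). It ranked 106 in replicate 1 (44.7) and 359 in replicate 2 (32.8). These 4 large-subunit peaks were thus among the 545 strongest regions of both replicates.

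At the small-subunit gene rps-1 the replicates ranked the peak far apart. There the summit lay 258 bp upstream of the start (III 4475918 to 4476876, plus strand), with a pooled signal value of 79.8 and rank 171. It ranked 75 in replicate 2 (signal value 62.5), but 1905 in replicate 1 (signal value 15.4). At rps-24 the summit lay 486 bp upstream of the start (IV 385887 to 386606, plus strand), with a signal value of 72.8 and rank 205, and here replicate 1 ranked it higher, at 101 (45.4) against 558 in replicate 2 (26.5). Replicate 2 thus ranked rps-1 higher and replicate 1 ranked rps-24 higher.

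Initiation factor 3 (eIF3) is the many-subunit complex that holds the small subunit ready for the messenger RNA. The peak at eif-3.C had a signal value of 63.7 and rank 286, 246 bp upstream of the gene start (I 9976426 to 9979662, minus strand), and it ranked 444 in replicate 1 (23.3) and 330 in replicate 2 (34.5). The peak at eif-3.E was the weakest of the 8, with a signal value of 45.2 and rank 503. Its summit lay 272 bp upstream of the start (I 10640465 to 10642281, minus strand), and it ranked 319 in replicate 1 (26.8) and 1114 in replicate 2 (20.8). In all, 5 of the 8 peaks were among the 545 strongest regions of both replicates, namely those at rpl-15, rpl-35, rpl-20, rpl-3 and eif-3.C. Of the 315 optimal peaks at other genes, 195 (61.9%) were. The optimal set was made from both replicates, so these counts partly follow from how it was chosen.

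**Figure D1:**
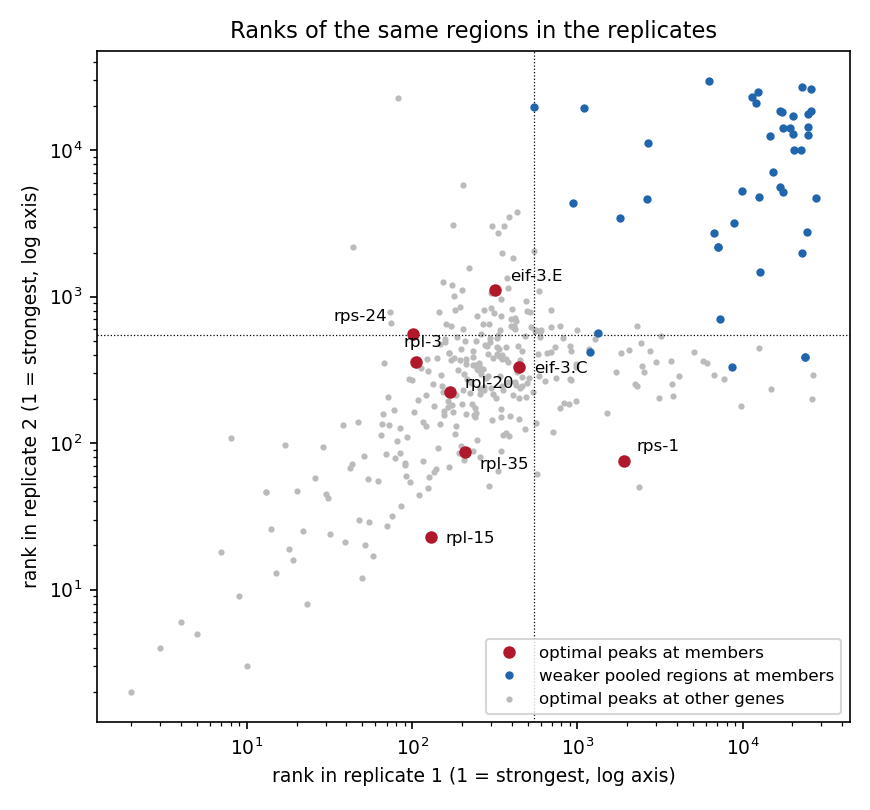
Rank of each region in replicate 1 (horizontal, log axis) and replicate 2 (vertical, log axis), where 1 is the strongest, for the 8 optimal peaks at members (red), the weaker pooled regions at members found in both replicates (blue) and the optimal peaks at other genes (grey). Each region takes the rank of the strongest replicate region that it overlaps. A weaker region beside a peak can thus carry the ranks of that peak, as at rps-24, eif-3.C and eif-3.E. Dotted lines mark rank 545; rps-1, at 1905 and 75, lies farthest to the right of the 8, and eif-3.E, at 319 and 1114, lies highest.

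The share of members with a peak was above the share of all genes. Members with an optimal peak made up 7.34% of the 109 (95% exact Clopper-Pearson interval 3.22% to 14.0%, counting error over genes only), beside 2.23% of all protein-coding genes (445 of 19973). With the 545 strongest regions of 1 replicate in place of the optimal peaks, the members counted were 8 (7.34%) in replicate 1 and 10 (9.17%) in replicate 2, beside 2.20% and 2.16% of all genes. Together these made 13 genes, of which 5 were in both, 3 in replicate 1 only and 5 in replicate 2 only. The single-replicate calls added rps-26, eif-3.B, rps-12 and rps-16 in replicate 2 and eif-3.K in replicate 1. No set test was run, because the genes were chosen with earlier results of these data known.

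When weaker regions were added to the count, the share of members stayed above that of all genes. Each share here is cumulative and includes the genes with an optimal peak. The pooled list held 30000 regions, peaks and background together. A region among its 2000 strongest lay in the window of 21 members (19.3%, interval 12.3% to 27.9%), beside 6.72% of all genes, and a region of any strength in that of 72 members (66.1%, interval 56.4% to 74.9%), beside 56.0%. Counting each gene once by its strongest region, the median rank was 5336.5 over these 72 members and 11638 over the 11181 protein-coding genes with a region. The median signal values were 21.2 and 17.2. The shares of members and of all genes thus lay further apart, as a ratio, among the strongest regions than among regions of any strength.

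**Figure D2:**
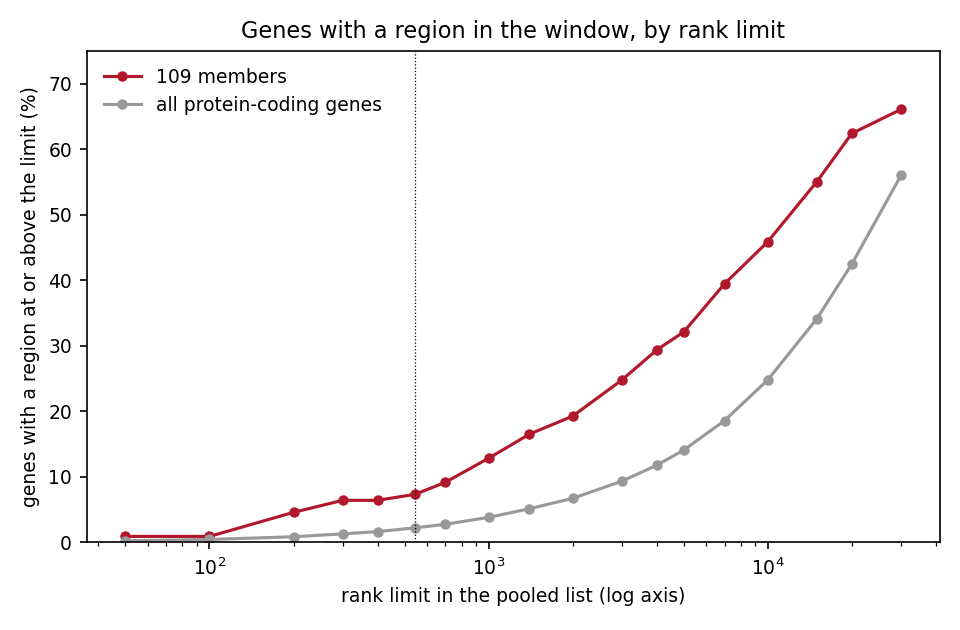
Percent of the 109 members (red) and of all protein-coding genes (grey) with a pooled region at or above a rank limit in the window (horizontal, log axis). The dotted line marks rank 545, where the values are 7.34% and 2.23%; at rank 30000 they are 66.1% and 56.0%.

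By symbol class the counts were small, and no difference between classes was tested. Of all protein-coding genes, 56.0% had a region and 6.72% had one among the 2000 strongest. Of the 47 rpl- genes, 27 had a region (57.4%, near the share of all genes) and 7 had one among the 2000 strongest (14.9%). Of the 31 rps- genes, 22 had a region and 8 one among the 2000 strongest (25.8%). Of the 25 eif- genes, 18 had a region and 6 one among the 2000 strongest (24.0%), whereas of the 6 eef- genes 5 had a region and none was that strong. The strongest of the eef- class was at eef-1G, a subunit of the factor that reloads elongation factor 1A with GTP, with a signal value of 22.2 at rank 4294. Its summit lay 3 bp downstream of the start. The region ranked 546 in replicate 1 and 19704 in replicate 2.

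All 6 eif- genes among the 2000 strongest encoded subunits of eIF3, a grouping seen after the values were known. They were 6 of the 11 eif-3 members (54.5%), beside 6.72% of all protein-coding genes. The best of the other 14 eif- members, which include subunits of initiation factors 2 and 2B, ranked 3963 (eif-2Bgamma). Below the peaks at eif-3.C and eif-3.E came eif-3.B (signal value 40.3, rank 604, 233 bp upstream), eif-3.I (31.1, rank 1092), eif-3.H (29.3, rank 1333) and eif-3.K (28.7, rank 1462). The eif-3.I and eif-3.K summits lay in introns upstream of the gene start, and the eif-3.H summit in a coding exon downstream of it. The replicates differed on the eif-3.B region, with rank 8612 in replicate 1 and 331 in replicate 2. The eif-3.K region ranked 505 in replicate 1 and overlapped none in replicate 2.

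Of the 37 members with no region in the window, 20 were rpl-, 9 rps-, 7 eif- and 1 eef- (eef-1A.2, a second gene for elongation factor 1A). Among the 12 strongest members below the peaks, the small-subunit genes were rps-26 (signal value 38.8, rank 655), rps-29 (36.2, rank 755), rps-12 (35.1, rank 802), rps-16 (34.0, rank 863), rps-28 (30.8, rank 1128) and rps-0 (30.4, rank 1185). The large-subunit genes were rpl-17 (32.3, rank 983) and rpl-21 (27.8, rank 1624). Several of them had far higher ranks in 1 replicate. The rps-16 region ranked 23846 in replicate 1 and 390 in replicate 2, and the rps-0 region ranked 1093 in replicate 1 and 19491 in replicate 2. The rps-12 region overlapped none in replicate 1 and ranked 524 in replicate 2. Of the 72 members with a pooled region, the strongest region overlapped one in both replicates for 39 members, and for 2 in neither.

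**Figure D3:**
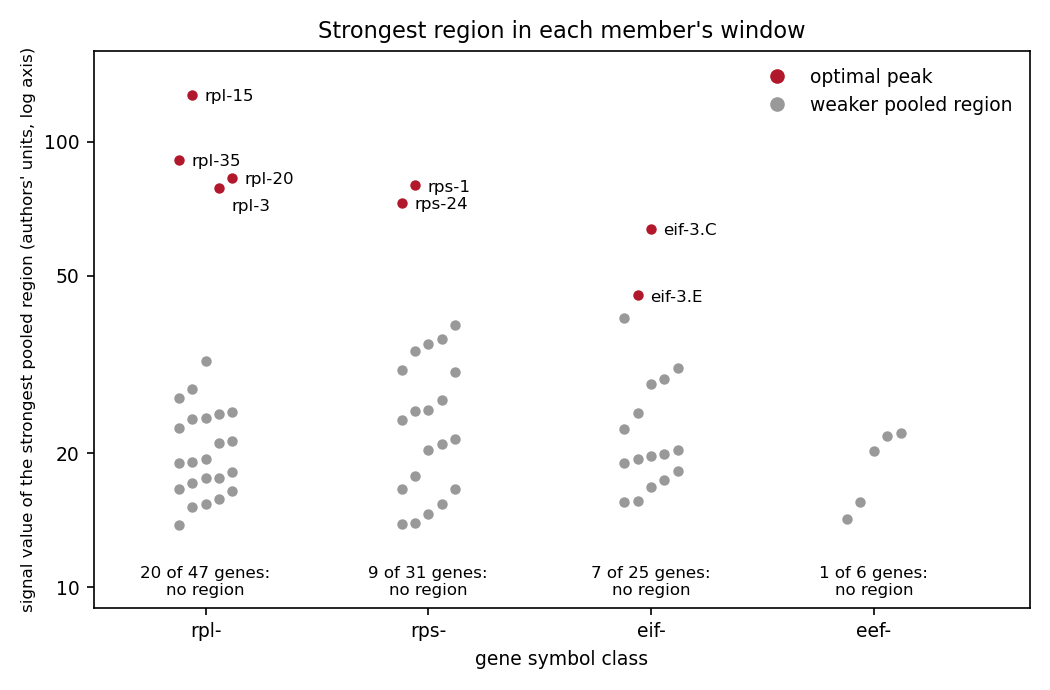
Signal value of the strongest pooled region in the window of each member (vertical, log axis) by symbol class; red points are optimal peaks and grey points weaker pooled regions, and the text under each class counts the genes with no region. The 8 named peaks, from 45.2 at eif-3.E to 127.4 at rpl-15, stand above all other members, of which eif-3.B is highest at 40.3.

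The summits were closely placed relative to the gene start. All 8 lay upstream, with a median distance of 280.5 bp and a span of 240 bp between the nearest and the farthest. The 106 weaker pooled regions in members' windows spread from 1987 bp upstream to 480 bp downstream, with a median of 471.5 bp upstream and 76 of them upstream. The 315 optimal peaks at other genes spread from 2000 bp upstream to 486 bp downstream, with a median of 238 bp upstream and quartiles at 777 and 87.5 bp upstream. The median at members was thus close to that of other promoter peaks, while the spread was smaller on far fewer peaks. Regions at members were measured to the member's start, but peaks at other genes to the nearest protein-coding gene start. At rpl-20 the start of another gene was nearer, 181 bp from the summit. Of the 8 summits, 7 lay in intergenic sequence and the rps-1 summit in an exon of a non-coding RNA gene. Of the 106 weaker regions, 27 (25.5%) had an intergenic summit, and 44 lay in coding exons and 24 in introns. Of the 315 optimal peaks at other genes, 242 (76.8%) had an intergenic summit, so the member peaks resembled other promoter peaks in this more than the weaker regions. Just outside the rule, the nearest optimal peak lay 728 bp downstream of the start of rpl-27, with a signal value of 45.0. Inside it, the summits closest to a window edge were those at eif-3.C and rps-1.

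**Figure D4:**
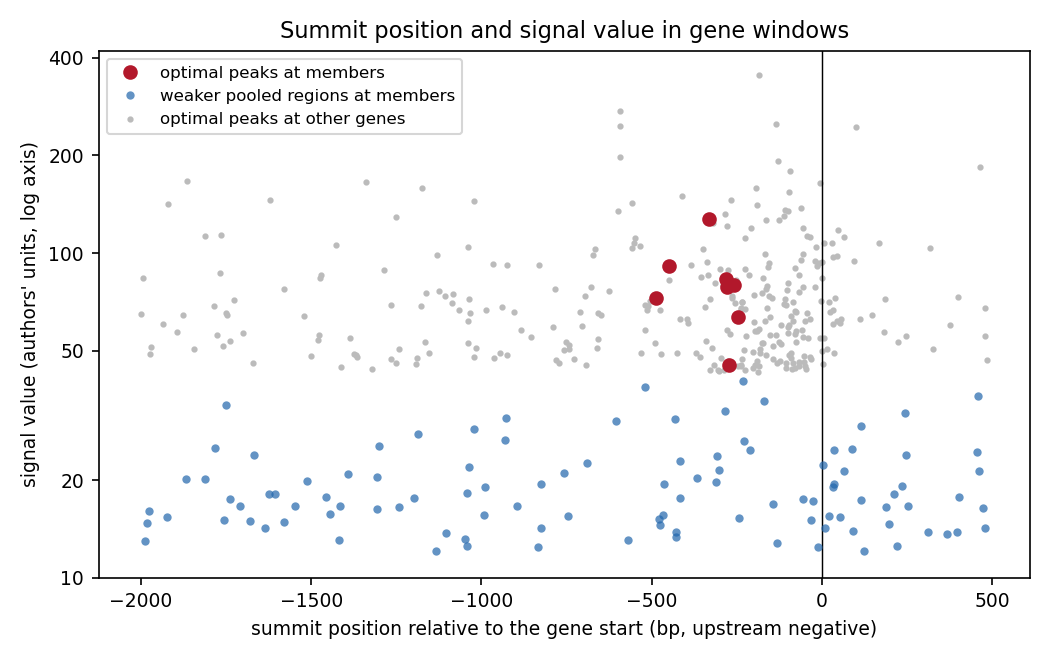
Summit position relative to the gene start (horizontal, bp, upstream negative) and signal value in the pooled list (vertical, log axis) for optimal peaks at members (red), weaker pooled regions at members (blue) and optimal peaks at other genes (grey). The 8 red points lie between 246 and 486 bp upstream, whereas the blue points run from 1987 bp upstream to 480 bp downstream. Red and blue points are measured to the member's start, grey points to the nearest protein-coding gene start.

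Some of these summits also lay upstream of a neighbouring gene. At rpl-35, rpl-3 and eif-3.C no other protein-coding gene start had the summit in its window. At rpl-20 the start of Y17G9B.5, on the opposite strand, was closer to the summit (181 bp) than that of rpl-20. The rps-1 summit lay 510 bp upstream of ifet-1, a gene on the opposite strand for a translational repressor that binds the cap-binding factor. The rpl-15 summit lay 482 bp upstream of K11H12.8, and that at eif-3.E 476 bp upstream of B0511.17, again both on the opposite strand. Which gene of such a pair a peak belongs to cannot be told apart from these files. The gap between the gene start and the next protein-coding gene upstream was 761 bp at the median for the 8 genes, 525 bp for the 64 members with weaker regions only, 539 bp for the 37 with none and 936 bp for all protein-coding genes.

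No proneural E-box lay within 50 bp of any of the 8 summits. A count of 0 of 8 allows a share of up to 37.5% (3 counts of the total, counting error only). Among the 315 optimal peaks at other genes, 149 (47.3%, exact interval 41.7% to 53.0%) held one. Among the 106 weaker regions at members, 5 (4.72%, exact interval 1.55% to 10.7%) did, the strongest of them at rps-0 (rank 1185). Searching 25 or 100 bp to each side also gave 0 of 8. An E-box of any class, CANNTG, was present at 4 of the 8 peaks (rps-1, rpl-3, eif-3.C and eif-3.E), beside 65.4% of the other promoter peaks and 32.2% of the 14962 pooled regions ranked past 15000 that lay at no member. The other promoter peaks include those with a proneural E-box, which is itself a CANNTG. Of the 274 optimal peaks without a proneural E-box, the 8 among them, 104 held CANNTG.

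Of the other words searched, TTTCAG, a match to the splice acceptor, was at 1 of 8 peaks (24.4% of other promoter peaks), a run of 6 T at 2 (30.2%) and GAGAGA at 1 (8.25%). CACGTG (4.13%), TATAAA (6.35%), CTGCGTCT (2.22%) and GGGCGG (2.54%) were at none of the 8. The 8-base word most frequent at E-box-free optimal peaks, ACTCCTCT, lay at 28 of those 274 peaks and at none of the 8 member peaks. All words were searched on both strands, within 50 bp of the summit. The sequence around these summits was richer in G and C at the median, with 50% over the 8 windows, beside 38.1% over the weaker member regions, 38.6% over the other promoter peaks and 42.6% over those of them without a proneural E-box. The 8 windows ranged from 32.7% at eif-3.E to 57.4% at rpl-3. Those at eif-3.E and rps-24 (36.6%) lay below all of these medians.

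The recurring word was found by counting every 6-base word at the 8 summits, and it is therefore a description with no test. Words present at 5 of 8 were AGTGTA and AAGTGT, both at rpl-15, rpl-35, rpl-20, rps-1 and rpl-3, and ACACTC, at rpl-15, rpl-20, rps-1, rpl-3 and rps-24. The first 2 overlap as AAGTGTA, which all 5 windows hold. AGTGTA lay at 9 (2.86%) of the other promoter peaks, or 5.42% of the 166 without a proneural E-box, 2 (1.89%) of the weaker member regions and 3.80% of the regions ranked past 15000. None of those 9 peaks held a proneural E-box, and they included peaks at mog-4, cdc-48.1 and cox-5A. The 3 member peaks without AGTGTA, at rps-24, eif-3.C and eif-3.E, were the weakest 3 of the 8. Peaks without a proneural E-box were thus found at members and at other genes, and the word lay at the 5 strongest member peaks.

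The word sat close to the summit and often in 2 copies. It was picked from the bases within 50 bp of the summit, so the distances found there were bounded by that choice. The 5 windows held 9 copies, with centres 4.5 to 32.5 bp from the summit, and extending the search to 300 bp either side added none. At rpl-15 2 copies in the same orientation were 11 bp apart from centre to centre, and at rpl-3 2 copies in the same orientation were 8 bp apart. At rps-1 2 copies in opposite orientation were 11 bp apart, and at rpl-20 they were 52 bp apart. Over the whole pooled list only 28 of 30000 windows (0.0933%) held 2 or more copies. Of these, 5 were optimal peaks, and 4 of those 5 were the peaks at rpl-15, rpl-20, rps-1 and rpl-3. A second word, ACCGTA, lay once at each of these same 4 peaks, in 1 orientation relative to the gene. It came from the same count of words, in which several other words also lay at 4 of the 8 peaks. Elsewhere ACCGTA lay at 10 (3.17%) of the other promoter peaks and 7 (6.60%) of the weaker member regions.

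**Figure D5:**
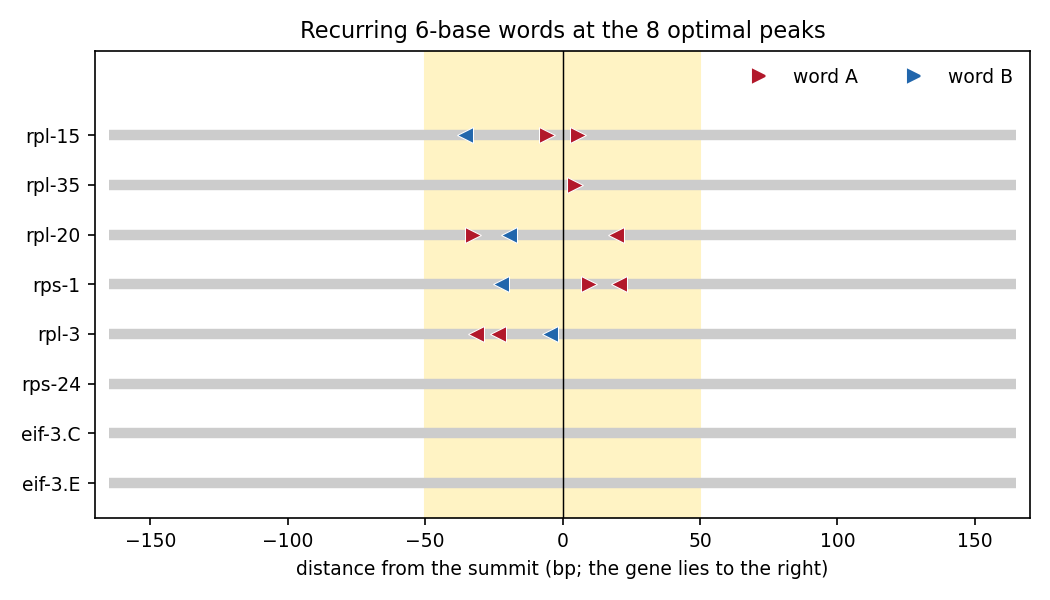
Position of word A (AGTGTA, red) and word B (ACCGTA, blue) relative to the summit (horizontal, bp, the gene to the right) at the 8 optimal peaks, from the strongest at the top; arrowheads give the orientation relative to the gene, grey bars the peaks and the shaded band the 50 bp either side of the summit. The 9 copies of word A lie within 32.5 bp of the summit at the upper 5 peaks, and the lower 3 peaks hold neither word.

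Longer stretches were also shared. The rpl-15 and rps-1 windows have gcattgtggagcgt in common, 14 bases in the same orientation relative to the gene. It has 2 copies on the nuclear chromosomes of the reference, which are these. It ends 6 bases before the next AGTGTA at rpl-15 and 7 bases before it at rps-1. A run of at least 14 bases was thus shared by 1 of the 15 pairs of printed windows (6.67%). Among the other promoter peaks, 257 of 49455 pairs (0.520%) shared a run of that length. Of the 28 pairs among all 8 member windows, 7 (25%) shared a run of at least 10 bases, all of them among the 6 printed windows. Of the pairs among the other promoter peaks 7.11% did, and of those among the 166 without a proneural E-box 8.53%. These pairs are not independent, since each window enters several. The runs shared by rpl-15 and rpl-20, by rpl-20 and rps-1, and by rps-1 and rpl-3 hold AGTGTA itself. The member count therefore partly repeats that word.

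AGTGTA was not a general feature of the promoters of these genes. In the 500 bp upstream of the gene start it was present at 5 of the 8 members with a peak and at 6 of the 101 without (5.94%), in all at 11 of 109 (10.1%), beside 17.7% of all protein-coding genes. The 5 are the genes whose summit windows gave the word, with those copies inside the same 500 bp. Their count therefore repeats the selection of the word and is no separate evidence. Of the 101 members without a peak, rpl-5 and eif-2Bbeta held 2 copies there. ACCGTA was frequent across the members, at 42 of 109 (38.5%), beside 13.9% of all genes. The word near the peaks was thus rarer at members than at genes in general, and the other word more frequent. A match to a word is not a binding site, and which factor, if any, reads these words was not tested.

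Other genes of translation were taken from lists chosen by symbol. Of 70 genes for mitochondrial ribosomal proteins, 1 had an optimal peak (1.43%, beside 2.23% of all genes). This was mrps-35, with a signal value of 69.7 and its summit 112 bp upstream. Of 32 aminoacyl-tRNA synthetase genes, which charge transfer RNAs, 2 had one (6.25%, a share near the members' 7.34%): ears-2 (54.9, 40 bp upstream) and kars-1 (49.4, 425 bp upstream). None of these 3 summits had a proneural E-box or AGTGTA nearby. The 6 further cytosolic ribosome genes, the 13 further initiation and termination factor genes and the 11 ribosome biogenesis genes had no optimal peak. Among the 2000 strongest regions these lists had 7 mitochondrial ribosome genes (10%), 4 synthetase genes (12.5%), 1 biogenesis gene and none of the other 2 lists, beside 6.72% of all genes.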

How the data were processed

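Values are the regions and signal values that the authors deposited as narrowPeak lists on ce11, 1 list per replicate, 1 from the pooled replicates and 1 of optimal peaks. The region lists were made from alignments and a control, per the text deposited beside them. The other values used from these deposited lists are the summit offsets. Not given in the sources used here: the peak caller, its thresholds, the signal's normalization and the number of reads, which leaves the depth unknown. The control was not analysed here, and ce10 lists were not used.

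Genes came from Ensembl release 115 and sequence from the RefSeq WBcel235 genome, whose chromosome lengths no region exceeds. All 545 optimal peaks were in the pooled list with the same position and signal and were its 545 strongest regions. A summit was assigned to every gene whose window held it. A region matched a replicate by an overlap of at least 1 bp, and the strongest match was taken. Shares have exact Clopper-Pearson intervals (SciPy 1.17.1, Python 3.11.15); no significance test was run. The assignment and word search were checked on simulated regions with known answers.

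Named were all members with an optimal peak, the 12 strongest others, the strongest of each symbol class, and up to 4 genes with an optimal peak per further list; other genes were named after their values were seen. Members, lists and words were chosen with earlier results of these data known. Alternatives changed the window, the assignment, the peak threshold, the search width and the overlap, and left out each replicate.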

Additional observations from a re-analysis of the deposited data

How the results depend on the processing

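Of 41 values recomputed under alternatives for 7 results, 38 stayed within 1.5 times the reported count or, for the median distance, within 31.5 bp, the SD of the 2 single-replicate values. Members with an optimal peak and optimal peaks at members were separate results, with equal values wherever both were computed. The 2 single-replicate distances were themselves among the values judged. The members with an optimal peak numbered 8 with the window cut to 1000 bp before and 200 bp after the start (1.55% of all genes), 9 with 5000 bp before and 1000 bp after it (4% of all genes), 7 when a summit went only to the nearest gene start, which removes rpl-20 (1.56%), and 6 among the 272 strongest optimal peaks (1.17%). Counting the 2000 strongest pooled regions raised the number to 21. Replicate 1 alone gave 8 members and replicate 2 alone 10. The proneural E-box count was 0 under the other windows, assignment, 272 strongest peaks, single replicates and search widths. It was not computed for the 2000 strongest regions, which include the rps-0 region with such an E-box, and any CANNTG gave 4. The peaks among the strongest regions of both replicates numbered 5, also with an overlap of 0.5 of the peak, and 8 with the 2000 strongest of each. AGTGTA was at 4 or 5 peaks in 6 alternatives chosen after the data had been seen. With 1 group, 2 replicates and unknown depth, a rank that differs between replicates, as at rps-1, could not be assigned to either library.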
